A study of Homo sapiens with 6 samples.

Results

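The genes examined are 36 human enzymes that add methyl groups to lysines of histone tails or remove them: 18 methyltransferases and 18 demethylases, taken by name from the study's gene table, out of 34918 genes to which transcripts were assigned. They were followed in THP-1, a human acute monocytic leukaemia line that grows in suspension and carries a fusion of the methyltransferase gene KMT2A. THP-1 cells from the German cell bank DSMZ were compared with THP-1 cells from the American bank ATCC, with 3 libraries of poly(A) RNA from each. Cells of both banks were untreated and were grown side by side in RPMI medium with 20% serum for 48 h, split, and grown for another 24 h at 37 °C in 5% CO2. Replicate expansions were independent, per the labels. Each bank stands for 1 stock of cells, so the effect of a bank and that of the stock it supplied cannot be told apart. In RNA from a whole culture, a gene expressed in fewer cells also cannot be told apart from one expressed less in each cell.

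Methylation of histone H3 at lysine 4 (H3K4) marks promoters and enhancers, methylation at lysine 36 (H3K36) marks transcribed gene bodies, and methylation at lysines 9 and 27 (H3K9, H3K27) marks repressed chromatin. Methyltransferases take the methyl group from S-adenosylmethionine. Most demethylases here carry a JmjC domain and need iron, oxygen and 2-oxoglutarate, while KDM1A and KDM1B use FAD. In myeloid leukaemia several of these enzymes are mutated or are drug targets, and KMT2A fusions are a defining lesion of one class of the disease.

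The DSMZ libraries held 23413428 to 37119721 estimated counts and the ATCC libraries 25632895 to 28198941. Levels are given as CPM, counts scaled to a common library size, in the order of replicates 1, 2 and 3. Fold changes are DSMZ minus ATCC on the log2 scale with their standard error (SE), and a gene passed at a Benjamini-Hochberg adjusted p under 0.05 over 14572 tested genes in the edgeR quasi-likelihood test. A panel of 10 monocytic markers summed to 1081 to 1267 CPM in DSMZ and 965 to 1394 CPM in ATCC, although CD14 itself was at 0.25 to 0.434 CPM in DSMZ and 0.892 to 1.55 CPM in ATCC. The defining markers CD3E of T cells and MS4A1 of B cells were at 0 counts in all 6 libraries. Summed T and NK cell markers were at 4.86 to 6.92 CPM in DSMZ and 10.2 to 12.6 CPM in ATCC, and B cell markers at 10.1 to 11.1 CPM in DSMZ and 5.38 to 6.96 CPM in ATCC. Epithelial, fibroblast and erythroid markers summed to at most 5.11 CPM in DSMZ and 4.43 CPM in ATCC. The part of these other markers in the results was not tested.

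One library stood apart. In ATCC replicate 2 the median deviation from the ATCC mean was -0.62 log2 units in the decile of genes with the lowest transcript GC content and 0.23 in the highest decile. The corresponding medians were 0.41 and -0.16 in ATCC replicate 1 and 0.19 and -0.07 in ATCC replicate 3, and within 0.04 of 0 in the DSMZ libraries. Across the 35 tested enzymes, the deviation of ATCC replicate 2 from the other ATCC libraries followed GC content with Pearson's r = 0.82 (n = 35 genes of the same 6 libraries, a description). For 10 of them it was below -0.5 log2 units: KMT2C, KMT2E, SUV39H2, SETD2, NSD3, ASH1L, KMT5B, KDM3A, JMJD1C and KDM7A. Values without this library are therefore given beside the results it touches.

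**Figure D1:**
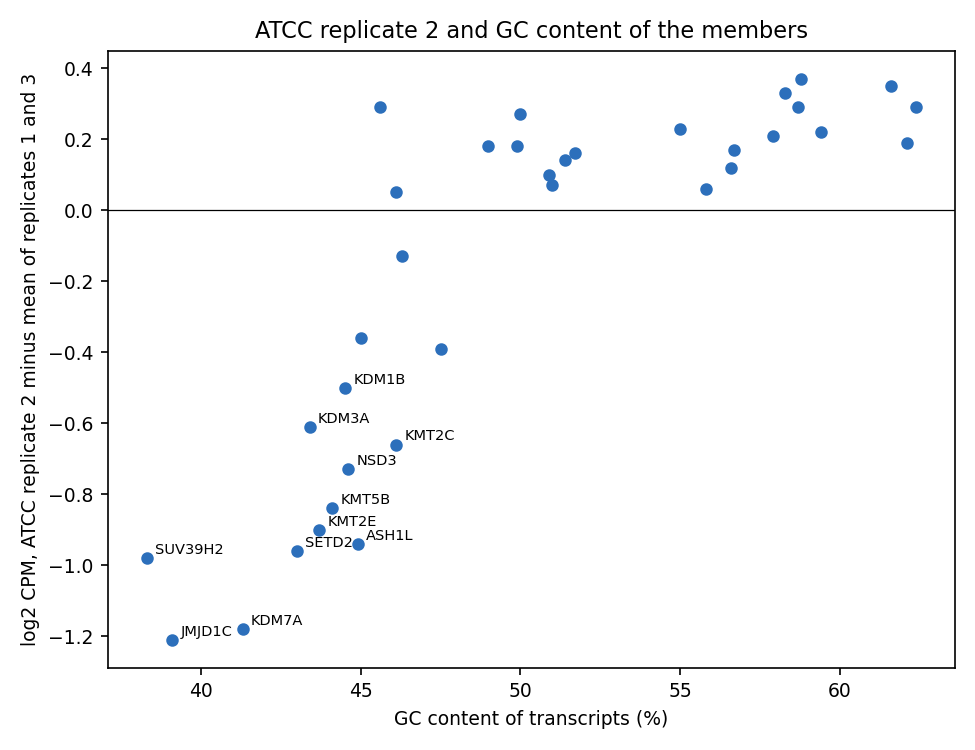
Deviation of ATCC replicate 2 from the mean of ATCC replicates 1 and 3 (log2 CPM, vertical axis) against the GC content of each enzyme's transcripts (percent, horizontal axis), 1 point per gene. SUV39H2, JMJD1C and KDM7A, with GC contents of 38.3, 39.1 and 41.3%, lie at -0.98, -1.21 and -1.18, while KDM3B, at 49% GC, and every tested enzyme of higher GC content lie above 0.

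Of the 36 enzymes, 35 had enough counts to be tested, and 22 (62.9%) differed between the banks: 13 were higher in DSMZ and 9 were lower there. Over all tested genes, 49.8% passed, 24.1% higher and 25.7% lower in DSMZ. The median log2 fold change was 0.22 over the tested enzymes and 0.01 over all tested genes. Of 18 methyltransferases 7 were higher and 4 lower in DSMZ, and of 17 tested demethylases 6 were higher and 5 lower. A difference of at least 2-fold was reached by 7 enzymes, against 21.3% of all tested genes. The 6 libraries did not overlap for 15 enzymes higher in DSMZ and 10 higher in ATCC, where 31.6% and 30.7% of all tested genes had no overlap in these directions. With a GC correction 17 enzymes were higher and 11 lower in DSMZ (63.9% of all genes passed, 31.5% higher and 32.3% lower), and without ATCC replicate 2 these counts were 15 and 12 (64.1% of all genes, 31.8% higher and 32.3% lower). All 22 enzymes passed under both. The GC correction added SETD1A, SETDB1, NSD3, KDM1B, KDM3A and KDM3B, and leaving out ATCC replicate 2 added SETD1A, SETDB1, NSD3, KMT5B and KDM3B.

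**Figure D2:**
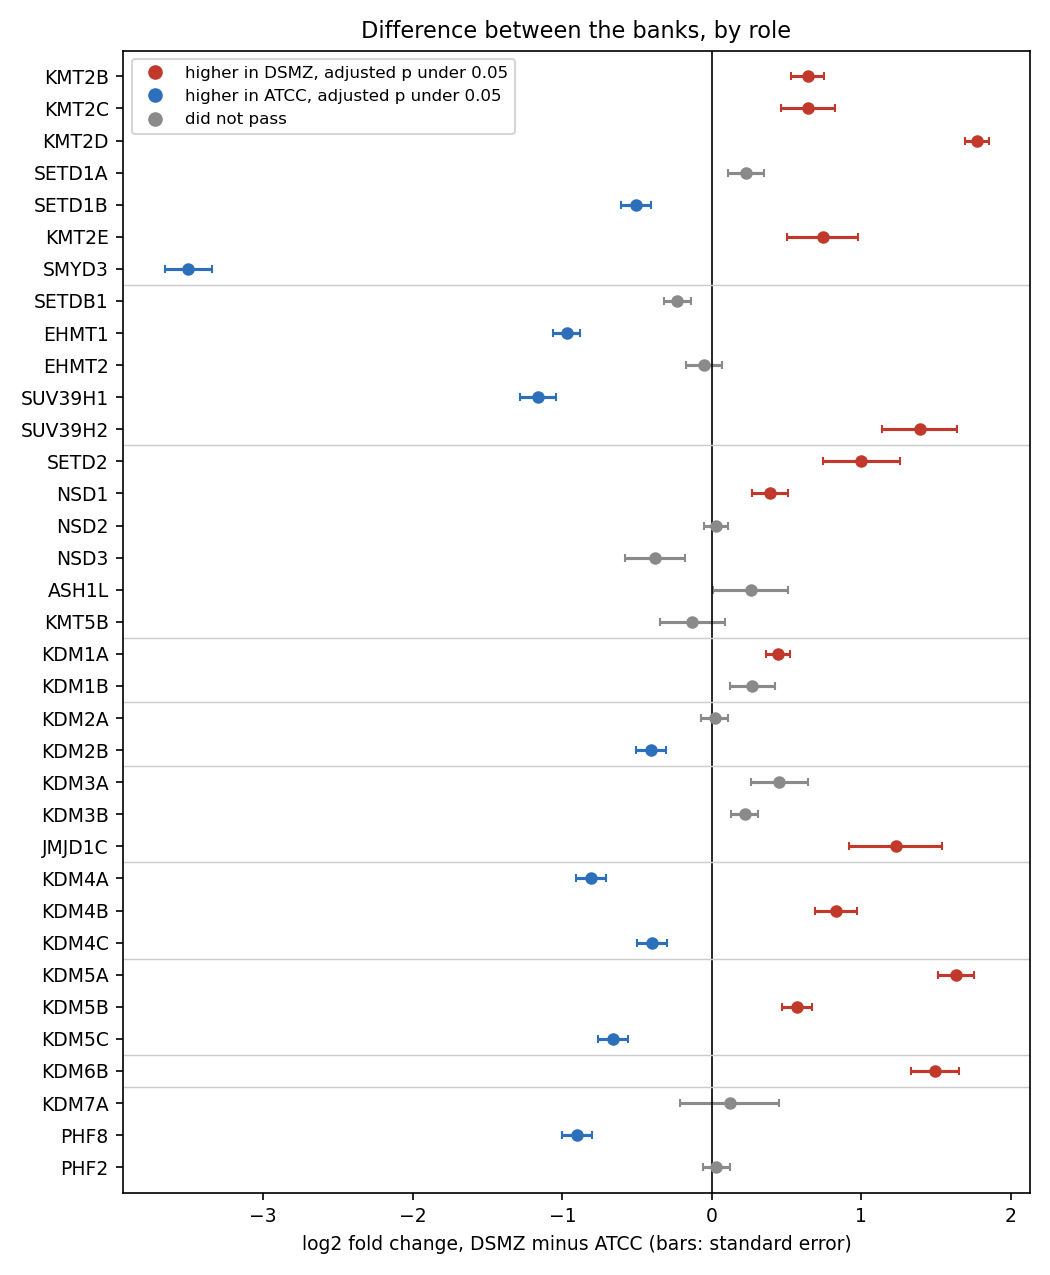
Log2 fold change, DSMZ minus ATCC (horizontal axis), of the 35 tested enzymes grouped by role (rows); points are edgeR estimates from 3 libraries per bank and bars are standard errors, coloured by direction among those that passed. SMYD3 at -3.50 stands apart on the left, and KMT2D at 1.77, KDM5A at 1.63 and KDM6B at 1.49 lie farthest to the right.

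Among the H3K4 methyltransferases, 6 of 7 differed (85.7%, against 49.8% of all tested genes), 4 higher and 2 lower in DSMZ. KMT2D, which places monomethylation on enhancers, rose the most. KMT2D (chr12:49018975-49059774, minus strand, GRCh38) had 344, 357 and 359 CPM in DSMZ, against 101, 110 and 101 CPM in ATCC. Every DSMZ library lay at more than 3 times the ATCC values, a log2 fold change of 1.77 (SE 0.08, adjusted p = 1e-05). Its relative KMT2C, which shares the role at enhancers, had 169, 178 and 187 CPM in DSMZ and 137, 82.4 and 123 CPM in ATCC. The groups did not overlap, but ATCC replicate 2 was the lowest library (log2 fold change 0.64, SE 0.18, adjusted p = 0.0197), and without it the log2 fold change was 0.46 (adjusted p = 0.000381). The adjusted p was 0.065 without DSMZ replicate 3, 0.0601 with a transcript length offset and 0.0967 on log2(TPM + 0.5). KMT2B, which trimethylates promoters of developmental genes, had 92.9, 82.5 and 88 CPM in DSMZ and 50.4, 62.4 and 56.8 CPM in ATCC (log2 fold change 0.64, SE 0.11, adjusted p = 0.00251).

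The 250 bases upstream of the RefSeq start of KMT2D (GRCh38.p14, chr12:49060795-49061044, minus strand), which lies upstream of the GENCODE span, are shown because it is the methyltransferase with the strongest rise. Capitals mark ACGTG and GCGTG on either strand, which are the core letters of the element bound by hypoxia-inducible factors, and CACGTG counts once on each strand.
KMT2D: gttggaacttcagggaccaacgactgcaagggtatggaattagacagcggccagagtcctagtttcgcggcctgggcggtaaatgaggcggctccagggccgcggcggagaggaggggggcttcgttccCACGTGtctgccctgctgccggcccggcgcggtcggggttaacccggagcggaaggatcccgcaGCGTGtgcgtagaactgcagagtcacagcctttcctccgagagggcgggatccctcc
The window holds 3 such matches. At least 1 match occurred in 43.2% of 35116 RefSeq windows of this length and in 64.2% of the 53 windows of the 34 enzymes with an entry. Windows of the enzymes were also richer in CpG, with a median of 23 CpG dinucleotides against 11 over all windows. A match is a run of letters and says nothing about binding in these cells.

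SETD1A and SETD1B are the SET1 type enzymes, which make most promoter H3K4 trimethylation. SETD1B had 36.9, 35.6 and 36.1 CPM in DSMZ and 47.5, 56.4 and 51.3 CPM in ATCC, so it fell in DSMZ without overlap (log2 fold change -0.51, SE 0.10, adjusted p = 0.00449). SETD1A averaged 73.9 ± 2.83 CPM in DSMZ and 63 ± 8.17 CPM in ATCC (SD, n = 3 each) and did not pass (log2 fold change 0.23, adjusted p = 0.141 in edgeR), while it passed with the GC correction (0.35, adjusted p = 0.000829) and without ATCC replicate 2 (0.34, adjusted p = 0.00309). KMT2E, a SET domain protein whose PHD finger binds H3K4 trimethylation and for which little enzymatic activity is known, had 105, 92.7 and 107 CPM in DSMZ and 79.4, 38.4 and 64.7 CPM in ATCC. This rise (log2 fold change 0.74, SE 0.24, adjusted p = 0.0361) was 0.50 without ATCC replicate 2, and the adjusted p was 0.06 without ATCC replicate 3, 0.0779 without DSMZ replicate 1 and 0.0982 without DSMZ replicate 3. On the length-scaled TPM, the promoter and enhancer writers KMT2B, KMT2C, KMT2D, SETD1A and SETD1B summed to 120, 123 and 119 TPM in DSMZ and to 66.9, 64.4 and 66.1 TPM in ATCC. KMT2D made up 61.5 ± 3.34% of the TPM of KMT2B, KMT2C and KMT2D in DSMZ and 46.3 ± 5.05% in ATCC (SD, n = 3 each).

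SMYD3, a SET and MYND domain methyltransferase described for H3K4 and for the kinase MAP3K2, was the enzyme with the widest difference. It had 10.2, 11.2 and 12.8 CPM in DSMZ, against 106, 146 and 135 CPM in ATCC, a level 11.3-fold higher in ATCC (log2 fold change -3.50, SE 0.16, adjusted p = 8.9e-06). The log2 fold change was -2.74 when only protein-coding transcripts were summed and -3.95 on log2(TPM + 0.1). SMYD3 lies at chr1:245749342-246507312 on the minus strand, so its 3 prime end has the lower coordinates. The 38 other tested genes with a start within 5 Mb had a median log2 fold change of -0.30.

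The difference was unequal between groups of SMYD3 transcripts, in a split made after its transcripts had been seen. RefSeq has an internal start of SMYD3 at position 245988551. The 4 transcripts that lie wholly upstream of this position summed to 1.32, 1.57 and 1.59 CPM in DSMZ and to 2.38, 2.39 and 2.37 CPM in ATCC, a log2 ratio of -0.67. For the 14 transcripts that reach beyond it the sums were 8.92, 9.66 and 11.2 CPM in DSMZ and 104, 144 and 132 CPM in ATCC, a log2 ratio of -3.67 or 12.8-fold. Some of the 14, among them SMYD3-214 and SMYD3-218, also cover much of the part upstream. The 4 upstream transcripts had only 30 to 57 estimated counts in DSMZ and 63 to 67 in ATCC. The split sorts whole transcripts, so it does not show how the difference ran along the gene. Transcript SMYD3-217, whose first base lies at position 245988562 beside the internal start, had 0 estimated counts in each DSMZ library and 327, 428 and 336 in ATCC. SMYD3-213, which starts at 245988538, had 0, 0 and 10 estimated counts in DSMZ and 90, 141 and 118 in ATCC. Transcripts that begin far upstream of the internal start also differed. SMYD3-218, which starts at 246417409, had 7, 95 and 161 estimated counts in DSMZ and 705, 890 and 760 in ATCC. SMYD3-203, which starts at 246193727, had 0, 10 and 0 in DSMZ and 301, 382 and 386 in ATCC. The difference was thus not limited to transcripts beginning at the internal start. SMYD3-214, a protein-coding transcript that spans the whole gene in 12 exons, had 156, 107 and 169 estimated counts in DSMZ and 411, 424 and 489 in ATCC. Its share of SMYD3 TPM was 28.1 ± 12.2% in DSMZ and 5.64 ± 0.694% in ATCC (SD, n = 3 each). Reads of overlapping transcripts are divided by estimation, so the values of single transcripts are uncertain.

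The 250 bases upstream of the internal SMYD3 start (GRCh38.p14, chr1:245988552-245988801, minus strand) are shown because transcripts beginning there were at or near 0 in DSMZ. Capitals are as for KMT2D.
SMYD3 internal start: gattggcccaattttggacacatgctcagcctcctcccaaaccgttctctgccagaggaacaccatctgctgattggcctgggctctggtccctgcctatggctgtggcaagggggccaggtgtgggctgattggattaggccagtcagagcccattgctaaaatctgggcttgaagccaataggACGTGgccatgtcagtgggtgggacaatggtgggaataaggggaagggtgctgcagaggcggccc
The window overlaps the first bases of SMYD3-217 and holds 3 CpG dinucleotides and 1 match.

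**Figure D3:**
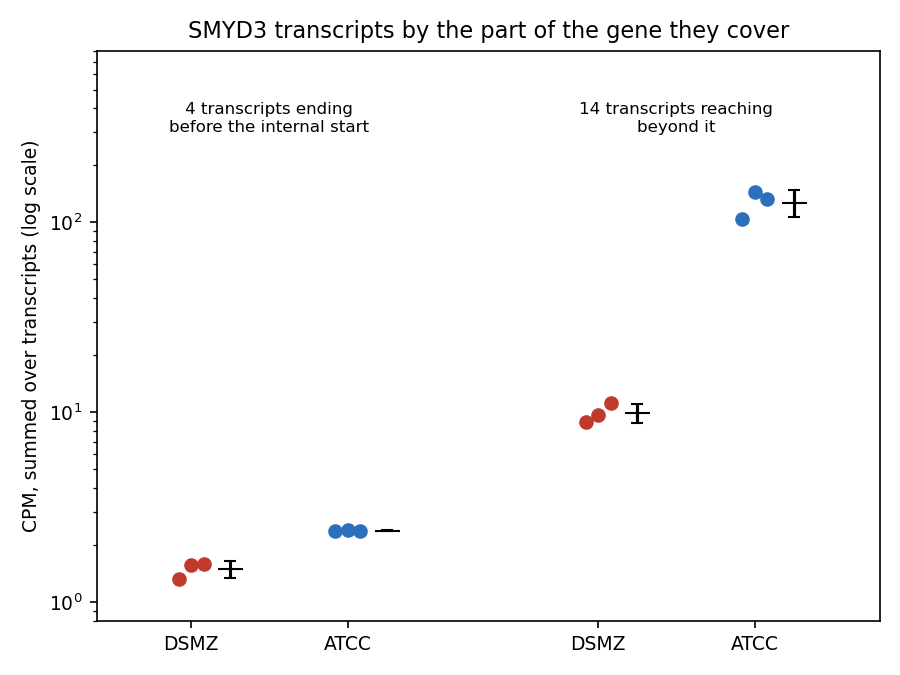
Summed CPM (log scale, vertical axis) of the SMYD3 transcripts that lie upstream of the internal start (left) and of those reaching beyond it (right), 1 point per library with the mean and SD of 3 libraries beside them. DSMZ lies at 1.49 ± 0.149 and ATCC at 2.38 ± 0.0124 on the left, and DSMZ at 9.92 ± 1.16 and ATCC at 127 ± 20.5 on the right.

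The enzymes that remove H3K4 methylation also differed, in both directions. KDM5A, which demethylates trimethylated H3K4 and was found as a binding partner of the retinoblastoma protein, had 165, 163 and 164 CPM in DSMZ, against 58.2, 44.7 and 56.4 CPM in ATCC. The DSMZ libraries were nearly equal and far above every ATCC library (log2 fold change 1.63, SE 0.12, adjusted p = 5.18e-05). KDM5B, a paralogue linked to slowly dividing tumour cells, had 153, 165 and 188 CPM in DSMZ and 112, 116 and 112 CPM in ATCC (log2 fold change 0.57, SE 0.10, adjusted p = 0.00267), and on TPM it did not pass (0.39, adjusted p = 0.0693 in limma). KDM5C, the X-linked paralogue, fell to 70.6, 71.9 and 68.7 CPM in DSMZ, against 102, 122 and 110 CPM in ATCC (log2 fold change -0.66, SE 0.10, adjusted p = 0.00126). The KDM5 genes together had 119 ± 6.56 TPM in DSMZ and 90.7 ± 11.2 TPM in ATCC (SD, n = 3 each). KDM5A supplied 37 ± 1.52% of this sum in DSMZ and 18.9 ± 2.49% in ATCC, and KDM5C 14.9 ± 0.423% in DSMZ and 32.6 ± 4.3% in ATCC (SD, n = 3 each).

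KDM1A (LSD1), the FAD-dependent demethylase of mono- and dimethylated H3K4 that is a drug target in acute myeloid leukaemia, had 230, 226 and 242 CPM in DSMZ and 169, 178 and 170 CPM in ATCC. It rose modestly and without overlap (log2 fold change 0.44, SE 0.08, adjusted p = 0.0032). KDM1B, its relative that acts in gene bodies, averaged 39.3 ± 2.88 CPM in DSMZ and 32.5 ± 6.13 CPM in ATCC (SD, n = 3 each) and did not pass (log2 fold change 0.27, adjusted p = 0.178 in edgeR). Its log2 fold change was 0.13 (adjusted p = 0.176) without ATCC replicate 2, and with the GC correction it passed at 0.24 (adjusted p = 0.0332).

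Of the 5 H3K9 methyltransferases, 3 differed (60%, against 49.8% of all tested genes). The paralogues SUV39H1 and SUV39H2, which trimethylate H3K9 in constitutive heterochromatin, went in opposite directions. SUV39H2 (chromosome 10) had 43.7, 47.4 and 47.8 CPM in DSMZ, against 21.3, 10.8 and 21 CPM in ATCC (log2 fold change 1.39, SE 0.25, adjusted p = 0.00262). ATCC replicate 2 was the low one, and without it the log2 fold change was 1.14 (adjusted p = 3.37e-06). SUV39H1 (X chromosome) had 17.8, 18.8 and 16.4 CPM in DSMZ, against 35.9, 44.9 and 37.3 CPM in ATCC (log2 fold change -1.16, SE 0.12, adjusted p = 0.000247). Of the TPM of this pair, SUV39H2 held 83.1, 83.3 and 85.9% in DSMZ and 55.6, 32.1 and 53.4% in ATCC.

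EHMT1 (GLP) and EHMT2 (G9a) form a heterodimer that places mono- and dimethylation on H3K9 in euchromatin. EHMT1 had 66.9, 65.9 and 66.7 CPM in DSMZ, against 128, 140 and 122 CPM in ATCC, 1.95-fold higher in ATCC (log2 fold change -0.97, SE 0.09, adjusted p = 0.000157). EHMT2 averaged 118 ± 1.87 CPM in DSMZ and 122 ± 18.9 CPM in ATCC (SD, n = 3 each; log2 fold change -0.05, adjusted p = 0.774 in edgeR). EHMT2 lies in the major histocompatibility region, where the reference holds alternative copies, and with primary-assembly transcripts alone its log2 fold change was -0.77 (adjusted p = 0.174). EHMT2 made up 52.9 ± 0.507% of the TPM of the pair in DSMZ and 38.8 ± 1.8% in ATCC (SD, n = 3 each). SETDB1, which silences retroelements with TRIM28, averaged 108 ± 2.98 CPM in DSMZ and 126 ± 9.58 CPM in ATCC (SD, n = 3 each). Its groups did not overlap, yet it did not pass (log2 fold change -0.23, adjusted p = 0.0732 in edgeR). It passed with the GC correction (-0.19, adjusted p = 0.0253) and without ATCC replicate 2 (-0.16, adjusted p = 0.0353).

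Among the KDM4 enzymes, which remove trimethylation from H3K9 and H3K36, all 3 differed (49.8% of all tested genes passed). KDM4A (chr1:43650158-43705515) had 284, 278 and 283 CPM in DSMZ, against 450, 556 and 473 CPM in ATCC (log2 fold change -0.81, SE 0.10, adjusted p = 0.000454). KDM4C, a paralogue amplified in some solid tumours, also fell, with 30.2, 29.6 and 28.7 CPM in DSMZ and 40.6, 36.5 and 39.5 CPM in ATCC (log2 fold change -0.40, SE 0.10, adjusted p = 0.0105). Its adjusted p was 0.0583 without DSMZ replicate 2 and 0.0598 without DSMZ replicate 3, 0.0572 with a transcript length offset and 0.0703 on log2(TPM + 0.5). KDM4B, known as induced by hypoxia and by oestrogen receptor signalling, rose instead, with 65.2, 69 and 82.3 CPM in DSMZ and 37, 47.5 and 37.6 CPM in ATCC (log2 fold change 0.83, SE 0.14, adjusted p = 0.00237). KDM4A remained the main member of the trio, with 78.5 ± 0.64% of its TPM in DSMZ and 88.5 ± 1.58% in ATCC (SD, n = 3 each).

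The promoter windows of these paralogues are shown because they moved in opposite directions, KDM4B at chr19:4968863-4969112 and KDM4A at chr1:43649899-43650148, both on the plus strand of GRCh38.p14, from RefSeq, with capitals as before.
KDM4B: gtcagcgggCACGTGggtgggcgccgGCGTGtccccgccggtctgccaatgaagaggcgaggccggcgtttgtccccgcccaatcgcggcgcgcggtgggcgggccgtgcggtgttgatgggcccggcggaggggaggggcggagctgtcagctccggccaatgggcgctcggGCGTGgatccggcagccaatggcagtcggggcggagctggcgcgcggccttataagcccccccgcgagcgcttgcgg
KDM4A: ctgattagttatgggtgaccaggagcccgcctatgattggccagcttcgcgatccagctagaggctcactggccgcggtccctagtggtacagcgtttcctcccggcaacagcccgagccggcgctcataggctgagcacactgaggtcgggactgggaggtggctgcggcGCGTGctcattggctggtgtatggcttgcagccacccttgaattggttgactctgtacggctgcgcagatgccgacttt
KDM4B holds 4 matches, of which CACGTG gives a pair, and KDM4A holds 1. The window of KDM4B has 36 CpG dinucleotides and that of KDM4A has 17. The RefSeq window of KDM4C, not shown, holds 5 matches and 21 CpG dinucleotides, and KDM4C was lower in DSMZ like KDM4A. That window lies inside the GENCODE span of KDM4C. The trio is too small to relate the number of matches to the direction of the difference, and no relation was tested.

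The KDM3 family removes mono- and dimethylation from H3K9. JMJD1C, which is needed for growth of several acute myeloid leukaemia models, had 175, 202 and 196 CPM in DSMZ, against 115, 43.1 and 86.1 CPM in ATCC. ATCC replicate 2 was again the lowest (log2 fold change 1.23, SE 0.31, adjusted p = 0.0133), and without it the log2 fold change was 0.93 (adjusted p = 0.000147). KDM3A, a known target of hypoxia-inducible factors, averaged 75.2 ± 11.6 CPM in DSMZ and 55 ± 12.7 CPM in ATCC (SD, n = 3 each) with no overlap and did not pass (log2 fold change 0.45, adjusted p = 0.0876 in edgeR). Without ATCC replicate 2 the log2 fold change was 0.29 (adjusted p = 0.0599), and without ATCC replicate 1 it was 0.57 (adjusted p = 0.0353). KDM3A also passed with the GC correction (0.40, adjusted p = 0.0123) and narrowly in DESeq2 (0.45, adjusted p = 0.0498). KDM3B, a paralogue mutated in some developmental disorders, averaged 225 ± 4.29 CPM in DSMZ and 193 ± 13.9 CPM in ATCC (SD, n = 3 each). It too had no overlap and did not pass (log2 fold change 0.22, adjusted p = 0.0737 in edgeR). It passed with protein-coding transcripts only (0.35, adjusted p = 0.0412), a transcript length offset (0.26, adjusted p = 0.0455), the GC correction (0.25, adjusted p = 0.00913) and without ATCC replicate 2 (0.29, adjusted p = 0.00134). The KDM3 and KDM4 genes together had 267 ± 5.26 TPM in DSMZ and 314 ± 10.1 TPM in ATCC, and the H3K9 methyltransferases 188 ± 5.45 TPM in DSMZ and 215 ± 7.58 TPM in ATCC (SD, n = 3 each).

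Of the 6 H3K36 and H4K20 methyltransferases, 2 passed (33.3%, against 49.8% of all tested genes), both higher in DSMZ. SETD2, the enzyme of H3K36 trimethylation that travels with RNA polymerase II, had 219, 196 and 197 CPM in DSMZ, against 138, 62.2 and 106 CPM in ATCC (log2 fold change 1.00, SE 0.26, adjusted p = 0.0142). Without ATCC replicate 2 the log2 fold change was 0.75 (adjusted p = 0.000286). NSD1, which dimethylates H3K36 and is a fusion partner of NUP98 in leukaemia, had 292, 266 and 274 CPM in DSMZ and 232, 176 and 229 CPM in ATCC (log2 fold change 0.39, SE 0.12, adjusted p = 0.0317). This call was lost on leaving out DSMZ replicate 1, 2 or 3 (adjusted p = 0.103, 0.0652 and 0.0802). NSD2, another H3K36 dimethylase, was among the most abundant enzymes, at 362 ± 8.18 CPM in DSMZ and 355 ± 15.5 CPM in ATCC (SD, n = 3 each; log2 fold change 0.03, adjusted p = 0.809 in edgeR).

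NSD3, the third of this family, averaged 147 ± 9.98 CPM in DSMZ and 191 ± 53.8 CPM in ATCC (SD, n = 3 each). It did not pass (log2 fold change -0.38, adjusted p = 0.155 in edgeR). It passed with the GC correction (-0.40, adjusted p = 0.023), a transcript length offset (-0.51, adjusted p = 0.036) and without ATCC replicate 2 (-0.58, adjusted p = 0.0003). ASH1L, which also dimethylates H3K36, had a log2 fold change of 0.26 (adjusted p = 0.404), or 0.02 without ATCC replicate 2. KMT5B, which methylates H4K20, averaged 38.7 ± 2.72 CPM in DSMZ and 42.2 ± 12.7 CPM in ATCC (SD, n = 3 each; log2 fold change -0.13, adjusted p = 0.661 in edgeR), and without ATCC replicate 2 it passed at -0.35 (adjusted p = 0.00451). The H3K36 writers summed to 255, 254 and 245 TPM in DSMZ and to 262, 189 and 238 TPM in ATCC, so their totals overlapped.

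The H3K36 demethylase KDM2B, which binds unmethylated CpG and brings Polycomb complexes to CpG islands, had 102, 96.7 and 93.6 CPM in DSMZ and 121, 143 and 123 CPM in ATCC (log2 fold change -0.41, SE 0.10, adjusted p = 0.012). Its adjusted p was 0.0714 without DSMZ replicate 2 and 0.0636 without DSMZ replicate 3. KDM2A, its paralogue, had a log2 fold change of 0.02 (adjusted p = 0.886).

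KDM6B (JMJD3), which removes trimethylation from H3K27 and is induced by inflammatory signals in macrophages, had 18.3, 18.2 and 20.5 CPM in DSMZ, against 5.44, 7.91 and 6.89 CPM in ATCC. The lowest DSMZ library was more than 2 times the highest ATCC library (log2 fold change 1.49, SE 0.16, adjusted p = 0.000223). The window at its upstream RefSeq start (GRCh38.p14, chr17:7833967-7834216, plus strand) is shown as that of the H3K27 demethylase that rose, with capitals as before.
KDM6B: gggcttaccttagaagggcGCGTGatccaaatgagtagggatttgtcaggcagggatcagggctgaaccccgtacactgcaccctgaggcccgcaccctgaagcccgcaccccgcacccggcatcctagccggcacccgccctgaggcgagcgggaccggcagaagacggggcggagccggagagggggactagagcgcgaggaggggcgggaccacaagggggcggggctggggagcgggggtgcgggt
It holds 1 match and 21 CpG dinucleotides.

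KDM6A (UTX), the X-linked H3K27 demethylase at chrX:44873177-45112602 and a subunit of KMT2C and KMT2D complexes, was almost undetected. It had 0, 4 and 0 counts in DSMZ and 2, 2 and 2 counts in ATCC. The pooled levels were 0.045 CPM in DSMZ (95% exact Poisson interval 0.0123 to 0.115) and 0.0736 CPM in ATCC (0.027 to 0.16), and no difference was detectable at this depth. A count of 0 over a bank's libraries would have allowed up to 0.0338 CPM in DSMZ and 0.0368 CPM in ATCC. Genes on its lower-coordinate side, examined after the low counts were seen, were also near 0. FUNDC1, a mitophagy receptor of the outer mitochondrial membrane at chrX:44523639-44543001, had 0 counts in DSMZ and 1 in ATCC. NDP, EFHC2 and DUSP21 had 0 in both, MAOA had 2 in each, and MAOB had 2 in DSMZ and 0 in ATCC. On the other side, the zinc finger gene KRBOX4 at chrX:46446857-46497422 was at 6.21 ± 0.683 CPM in DSMZ and 14 ± 3.11 CPM in ATCC (SD, n = 3 each; log2 fold change -1.17, adjusted p = 0.00154 in edgeR).

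Among the KDM7 enzymes, PHF8, an X-linked demethylase of H3K9 and H4K20, had 24, 25.9 and 24.4 CPM in DSMZ, against 45.2, 49.2 and 44.3 CPM in ATCC (log2 fold change -0.90, SE 0.10, adjusted p = 0.000261). PHF2, which demethylates H3K9, averaged 53 ± 1.74 CPM in DSMZ and 51.8 ± 1.64 CPM in ATCC (SD, n = 3 each; log2 fold change 0.03, adjusted p = 0.794 in edgeR). KDM7A was scarce at 1.77 ± 0.339 CPM in DSMZ and 1.62 ± 0.666 CPM in ATCC (SD, n = 3 each; log2 fold change 0.12, adjusted p = 0.791 in edgeR), or -0.17 without ATCC replicate 2.

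Levels can be set against each other only per length. On TPM the order of the enzymes began with KDM4A (113 ± 6.17), NSD2 (98.2 ± 3.8) and KDM1A (97.7 ± 2.67) in DSMZ, and with SMYD3 (260 ± 30.1), KDM4A (199 ± 15.1) and NSD2 (90.9 ± 3.58) in ATCC (SD, n = 3 each). NSD2 and KDM1A in DSMZ lay within their spread. SMYD3 ranked 26 of 36 in DSMZ and 1 in ATCC, and KMT2D ranked 4 in DSMZ and 18 in ATCC. KDM6A was last in both. All 36 enzymes summed to 1222, 1212 and 1236 TPM in DSMZ and to 1443, 1375 and 1445 TPM in ATCC, and SMYD3 with 16.7 ± 2 TPM in DSMZ and 260 ± 30.1 TPM in ATCC (SD, n = 3 each) was the member that differed most. On the means SMYD3 differed by more than the whole sum did, so the mean sum without SMYD3 was not higher in ATCC. Gene TPM also depends on which transcripts carry the reads: KMT2D-202, of 859 bases, held 54.2 ± 0.936% of KMT2D TPM in DSMZ and 54.2 ± 2.14% in ATCC (SD, n = 3 each). SMYD3-211, of 514 bases and not annotated as protein-coding, held 21.8 ± 2.87% of SMYD3 TPM in DSMZ and 36.7 ± 2.56% in ATCC (SD, n = 3 each). The protein-coding SMYD3-214, which spans the gene, had 6.05, 3.44 and 4.09 TPM in DSMZ and 13.7, 14.1 and 15.9 TPM in ATCC. The first rank of SMYD3 in ATCC is thus not that of its full-length transcript.

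**Figure D4:**
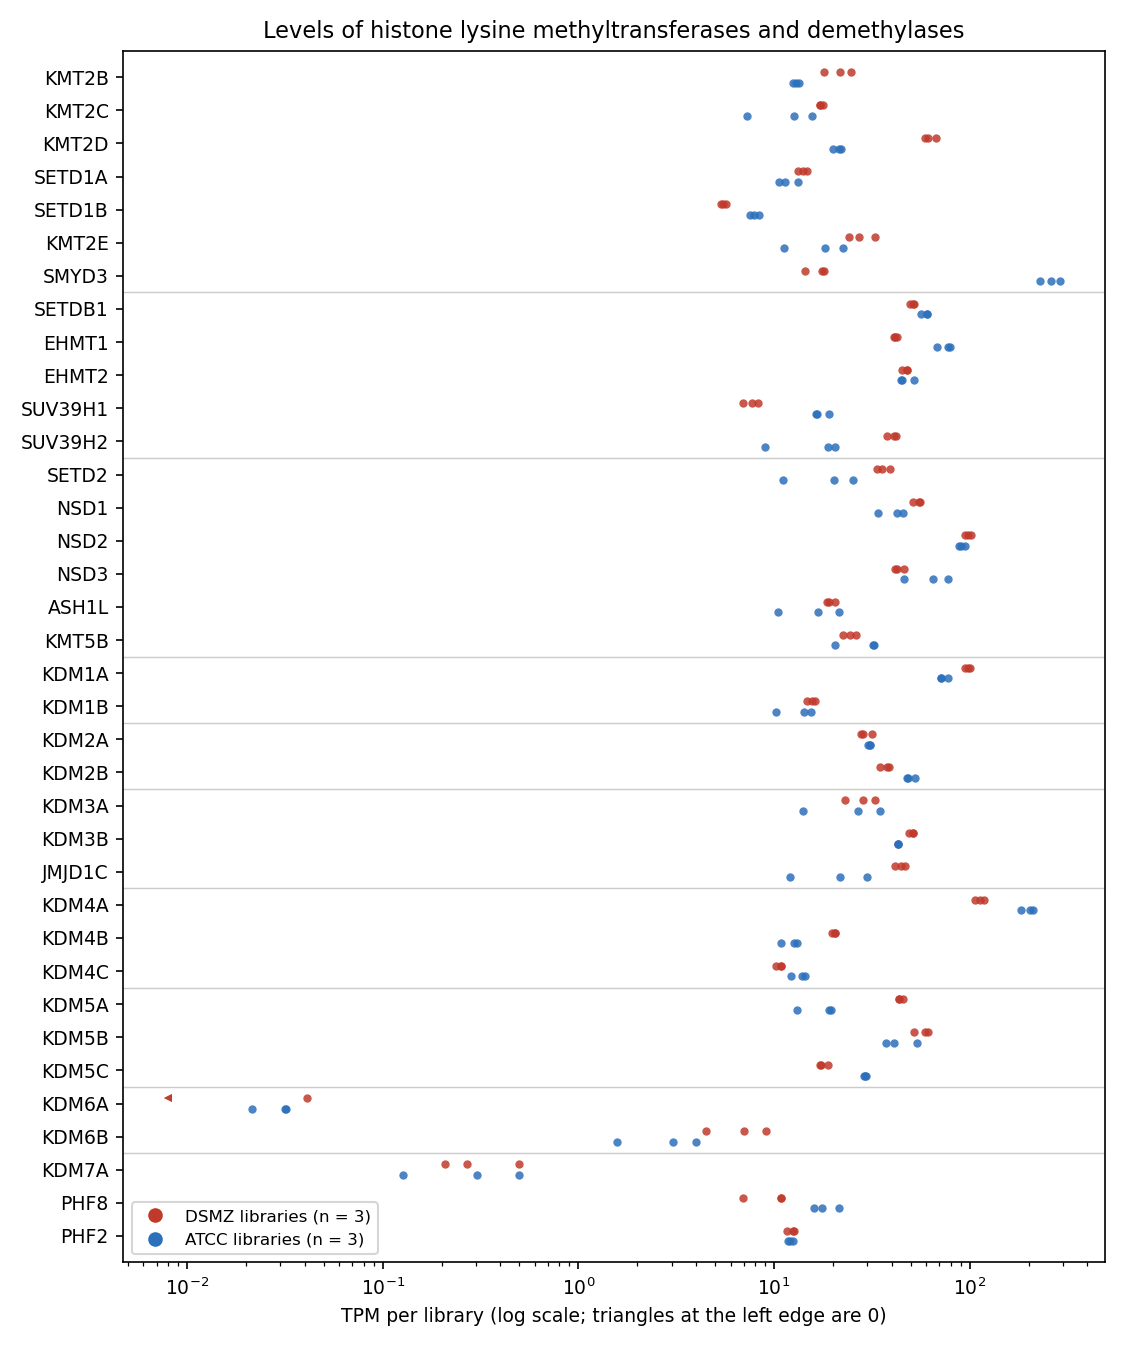
TPM of each enzyme (rows, grouped by role) in each library on a log scale (horizontal axis), DSMZ libraries above ATCC libraries in each row, with triangles at the left edge for values of 0. SMYD3 lies at 14.4 to 18.1 TPM in DSMZ and 230 to 290 TPM in ATCC, and KDM6A is near 0 in both banks.

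The use of transcripts within a gene was examined after the gene totals. Of 105 transcripts that held at least 10% of their gene's TPM in a bank, 7 had shares that did not overlap and lay at least 5 percentage points apart. These belong to KDM4B, KDM4C, KMT2E and SMYD3. The same share over the transcripts of all genes was not computed, so it is not known whether 7 of 105 is many or few. KDM4B-201 held 37.9, 34.7 and 38.6% of KDM4B TPM in DSMZ and 6.62, 16.7 and 12.3% in ATCC. KDM4C-202 held 38.3, 46.2 and 41.2% in DSMZ and 59.6, 58.6 and 57.8% in ATCC. KMT2E-201 held 22.4, 14.9 and 22.2% in DSMZ and 41.5, 30.4 and 36.4% in ATCC. These shares come from the same division of overlapping reads and were not tested.

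The differences were set beside those of genes nearby. Of the 22 enzymes that differed, 18 had the sign of the median log2 fold change of the other tested genes within 5 Mb. The same share over all genes that passed was not computed. Some medians lay close to 0, such as 0.03 for KMT2E, 0.12 for KDM1A and -0.10 for KDM4C, so their sign says little. Of the 18 enzymes, 17 had a larger difference than that median. This was likely in advance, because the enzymes were picked for passing and the medians include genes that did not pass. Across the 35 tested enzymes both values had Pearson's r = 0.65 (n = 35 genes, some sharing a region, a description). On the X chromosome, where the median log2 fold change of all tested genes was -0.81 to -0.82 with each enzyme left out, the neighbours of SUV39H1, KDM5C, PHF8 and the barely detected KDM6A had medians of -0.81, -0.86, -0.79 and -0.81. On chromosome 10, whose genes had a median of 1.03, the neighbours of SUV39H2 and JMJD1C had medians of 0.98 and 1.07. Chromosome 12 was divided: the neighbours of KDM5A and KMT2D had medians of 1.18 and 1.00, while those of SETD1B and KDM2B both had a median of -0.29. EHMT1 at the end of chromosome 9 had neighbours with a median of -0.75, and NSD3 on chromosome 8 had neighbours with a median of -0.93.

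The exceptions were KMT2C, NSD1, KDM4B and KDM5B, which were higher in DSMZ while their neighbours had medians of -0.10, -0.12, -0.13 and -0.75. Around KDM5B, 6.67% of 75 neighbouring genes were higher and 65.3% lower in DSMZ. SMYD3 at -3.50 was far below its neighbours on chromosome 1, at -0.30, and KDM4A at -0.81 was below its own, at -0.28. Enzymes well above neighbours of the same sign included KDM6B at 1.49 (neighbours 0.59), KMT2D at 1.77 (1.00), SETD2 at 1.00 (0.23) and KMT2E at 0.74 (0.03). The part of these regional shifts in the enzymes' differences was not tested.

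**Figure D5:**
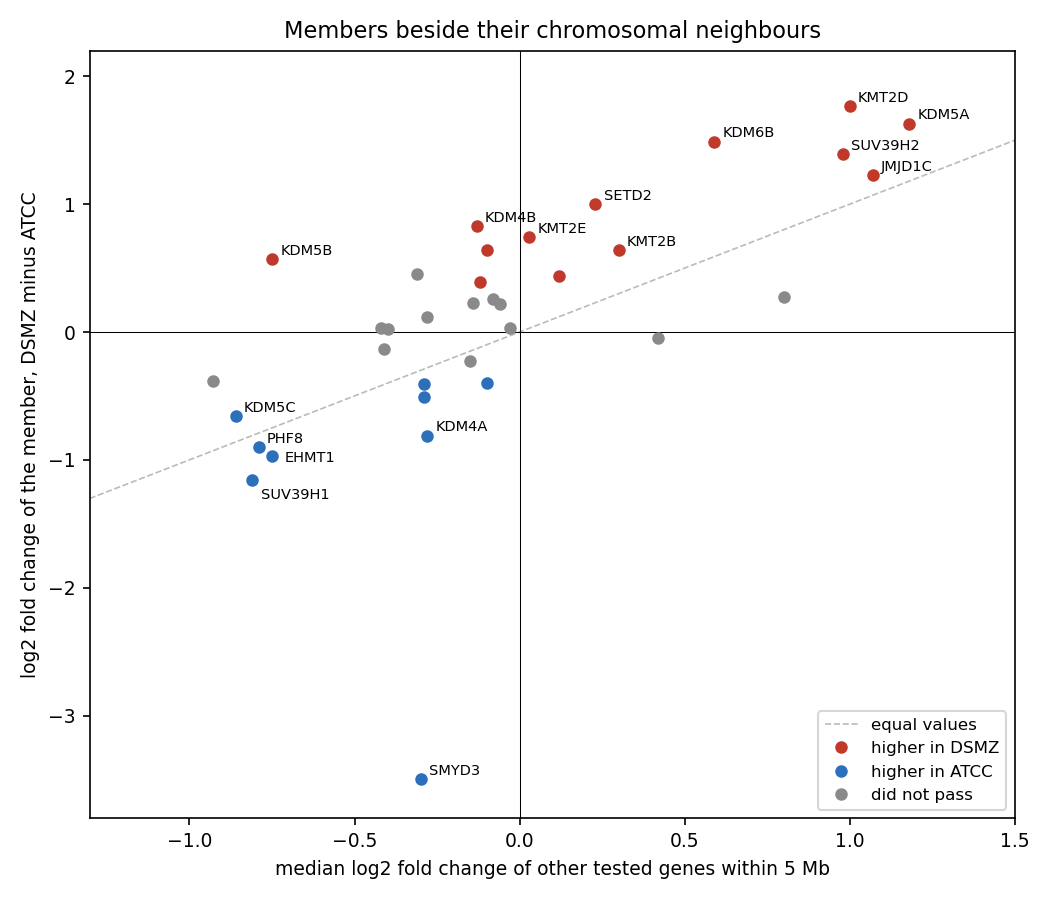
Log2 fold change of each tested enzyme (vertical axis) against the median log2 fold change of the other tested genes with a start within 5 Mb (horizontal axis), both DSMZ minus ATCC; the dashed line marks equal values. KDM5A, KMT2D, SUV39H2 and JMJD1C lie at the upper right, KDM5C, PHF8, EHMT1 and SUV39H1 at the lower left, and KDM5B at the upper left.

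A list of 64 related genes was counted in the same test, of which 62 were tested, 19 were higher and 13 were lower in DSMZ. This share of 51.6% was near the 49.8% of all tested genes (24.1% higher, 25.7% lower). The count of genes lower in DSMZ was 6 without ATCC replicate 3, and 6, 4 and 8 without DSMZ replicates 1, 2 and 3. Of the 13 COMPASS subunits, which assemble with the KMT2 and SETD1 enzymes, 4 were higher and 7 lower, 84.6% against 49.8% of all tested genes, a difference that was not tested. ASH2L had 59.4, 65.6 and 65.6 CPM in DSMZ and 158, 170 and 165 CPM in ATCC (log2 fold change -1.37, SE 0.09, adjusted p = 3.6e-05). The other core subunits, named after their values were seen, also fell: WDR5 had 87.5 ± 0.753 CPM in DSMZ and 181 ± 17.2 CPM in ATCC (log2 fold change -1.05), and RBBP5 had 42.4 ± 1.03 CPM in DSMZ and 85.5 ± 3.5 CPM in ATCC (log2 fold change -1.01; SD, n = 3 each). DPY30 passed narrowly with overlapping libraries (log2 fold change -0.57, adjusted p = 0.048), and missed the threshold without ATCC replicate 2 or 3 or DSMZ replicate 1 or 2 (adjusted p = 0.0601, 0.0957, 0.149 and 0.126). BOD1L1, a partner of SETD1A, rose, with 111, 121 and 144 CPM in DSMZ and 73.6, 29.2 and 54 CPM in ATCC (log2 fold change 1.26, adjusted p = 0.0104), or 0.98 without ATCC replicate 2. ASH2L, WDR5 and RBBP5 also lie among neighbours with medians of -0.88, -0.58 and -0.74.

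In the KDM1A complex 1 of 10 genes was higher and 2 were lower in DSMZ (30% passed, against 49.8% of all tested genes). ZMYM2 had 161, 153 and 172 CPM in DSMZ and 90.8, 37.9 and 82.2 CPM in ATCC (log2 fold change 1.21, adjusted p = 0.0107), or 0.92 without ATCC replicate 2. Its X-linked paralogue ZMYM3 had 55.3, 58.4 and 59.4 CPM in DSMZ and 108, 130 and 113 CPM in ATCC (log2 fold change -1.02, adjusted p = 0.000206). Among H3K9 partners and readers, 6 of 12 were higher and 1 lower (58.3% passed, against 49.8% of all tested genes). CDYL, a chromodomain protein that works with G9a, had 55.3, 53.1 and 54 CPM in DSMZ and 27.1, 23.4 and 25.8 CPM in ATCC (log2 fold change 1.09, adjusted p = 0.000128). TRIM28, the corepressor that recruits SETDB1, had 522, 543 and 525 CPM in DSMZ and 289, 370 and 296 CPM in ATCC (log2 fold change 0.73, adjusted p = 0.00126).

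Of 19 other tested lysine methylation enzymes, 7 were higher and 3 lower (52.6% passed, near the 49.8% of all tested genes). SETD5, a SET domain protein mutated in intellectual disability, had 194, 193 and 211 CPM in DSMZ and 125, 112 and 123 CPM in ATCC (log2 fold change 0.73, adjusted p = 0.000453). KDM4D, a further KDM4 enzyme, was scarce at 0.477, 0.743 and 0.862 CPM in DSMZ and 1.38, 1.21 and 1.39 CPM in ATCC (log2 fold change -0.90, adjusted p = 0.0197), and its adjusted p was 0.0575 without ATCC replicate 3, 0.0547 without DSMZ replicate 1 and 0.0548 without DSMZ replicate 2. KMT2A, the gene fused in this line, averaged 118 ± 9.61 CPM in DSMZ and 104 ± 24.7 CPM in ATCC and did not pass (SD, n = 3 each; log2 fold change 0.19, adjusted p = 0.406 in edgeR). Its log2 fold change was 0.02 (adjusted p = 0.86) without ATCC replicate 2, and with a transcript length offset it passed at 0.47 (adjusted p = 0.0217). Counts of the normal and the fused copy cannot be told apart here. Of 8 tested genes of methyl donor and cofactor supply, 1 passed, 12.5% against 49.8% of all tested genes. MAT2B, a subunit of S-adenosylmethionine synthetase, had 108, 108 and 107 CPM in DSMZ and 91, 84.6 and 91.8 CPM in ATCC (log2 fold change 0.27, adjusted p = 0.0302 in edgeR). That call did not hold under most alternatives, among them leaving out any library but ATCC replicate 2 (adjusted p = 0.0712 to 0.146), the GC correction (-0.02, adjusted p = 0.946), upper quartile scaling (adjusted p = 0.13), library totals (adjusted p = 0.0654), log2(TPM + 0.5) (adjusted p = 0.0888), a transcript length offset (adjusted p = 0.0699) and inclusion of all genes with a count (adjusted p = 0.096).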

How the data were processed

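Poly(A) RNA of 6 THP-1 cultures was sequenced from stranded libraries (KAPA), per the labels' protocols. Reads were handled with bcl2fastq 2.20, Trimmomatic 0.35 and kallisto 0.43.0 and the build GRCh38, per the submitters' processing notes, and which annotation they used is not stated in the sources used here. Each deposited file lists for each transcript its length, its effective length, an estimated count that is not normalized, and a TPM value, per the file headers. Estimated counts and TPM were summed per gene symbol of GENCODE 29 over 163714 transcripts (91%) matched on the primary assembly and 14387 matched by symbol only (2.43 to 2.85% of counts), while 1872 (0.177 to 0.196% of counts) had no gene and were left out. Reads shared with paralogues or with copies on alternative sequences are divided by kallisto's estimation.

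Gene sums of the estimated counts as deposited were rounded to whole numbers and tested with edgeR 4.0.16 in R 4.3.3 (filterByExpr, TMM, quasi-likelihood test with the bank as the only term, Benjamini-Hochberg over 14572 genes, threshold 0.05). The biological coefficient of variation was 15.9%. CPM values use the TMM scaled totals. An SE is the size of the log2 fold change over the root of its F value. Intervals have 95% confidence and cover counting error only, and a floor is 3 counts. No 2 libraries were close enough to be 1 library deposited again (smallest chi-square per degree of freedom within a bank 4.34). Transcript GC content could be computed for 99.9% of the genes tested. Counts of the DSMZ against ATCC comparison were also simulated for 14572 genes. There the test recovered 11 of 67 planted 1.5-fold changes, 42 of 67 at 2-fold and 63 of 66 at 4-fold, and called 6 of 14372 unchanged genes. The planted changes were a far smaller share of genes than the 49.8% that passed in the data. These recovery rates therefore need not hold for the real comparison.

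The enzymes, the lists of partner genes and markers, and the tests were chosen with earlier results of these data known. All 36 enzymes are named; from each partner list the text names up to 2 genes that passed with the largest differences and a mean of at least 1 CPM, and KMT2A whatever its value. Isoforms, the division of SMYD3, the genes beside KDM6A, and WDR5, RBBP5 and DPY30 were chosen after their values were seen. Alternatives were RLE, upper quartile and unscaled normalization, DESeq2 1.42.0, limma 3.58.1 (voom, and on log2(TPM + 0.5) and log2(TPM + 0.1)), other filters on low counts, protein-coding transcripts only, a transcript length offset, a correction for GC content, a fit with the replicate number as a block, libraries thinned to the smallest total, and each library left out in turn. Primary assembly transcripts only, and the GC correction without ATCC replicate 2, were added after seeing the data. Promoter windows are from RefSeq (GRCh38.p14). Figures were drawn with matplotlib 3.10.9.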

Additional observations from a re-analysis of the deposited data

How the results depend on the processing

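Over 23 alternative settings, 16 of the 22 enzymes that differed passed in the same direction in every one, 6 (KMT2C, KMT2E, NSD1, KDM2B, KDM4C and KDM5B) missed the threshold in at least 1, and 0 changed sign. The counts of enzymes ranged from 10 to 15 higher in DSMZ and 7 to 12 lower on leaving out 1 library, and over all genes from 2560 to 4712 higher and 2948 to 4797 lower. Partner genes lower in DSMZ numbered 4 to 16, and higher 13 to 28, on leaving out 1 library, and the cause was not tested. Upper quartile scaling moved the median of all genes to -0.07, from 0.01, and 42.4% of calls were then higher in DSMZ, against 48.4%. Signs turned only for enzymes that had not passed and for MAT2B. EHMT2 was at 0.01 with a transcript length offset, 0.004 with the GC correction, 0.08 without ATCC replicate 2, 0.02 with both, and -0.18 to 0.08 without 1 library. NSD2 was at -0.06 under upper quartile scaling, -0.02 with library totals, -0.01 with protein-coding transcripts, and -0.01, -0.03 and -0.003 without ATCC replicate 1, ATCC replicate 3 and DSMZ replicate 2 (-0.03 to 0.07 over all libraries left out). KMT5B was at 0.02 without ATCC replicate 1 (-0.35 to 0.02). KDM2A was at -0.07 under upper quartile scaling, -0.03 with library totals, -0.06 on both TPM scales, -0.03 with a length offset, -0.01 when thinned, and -0.04 and -0.03 without ATCC replicates 1 and 3. KDM7A was at -0.0006 with the GC correction, -0.17 without ATCC replicate 2, -0.14 with both, and -0.03 without DSMZ replicate 1 (-0.17 to 0.35). PHF2 was at -0.05 under upper quartile scaling, -0.02 with library totals, and -0.02 and -0.01 without ATCC replicate 1 and DSMZ replicate 1. MAT2B was at -0.02 with the GC correction. Genes under about 1 CPM, such as KDM4D and KDM6A, are limited by depth.

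Same-numbered libraries of the banks had deviation correlations of 0.01, 0.06 and 0.14, and differently numbered libraries -0.10 to 0.02. The labels call the replicate expansions independent, and the numbers were not taken as pairs in the main fit. These correlations do not settle whether the numbers mark pairs. With a replicate block 14 enzymes were higher and 9 lower in DSMZ, all 22 remained and KDM3A was gained; partner genes numbered 18 and 11, and all genes 3472 and 3543. With the block and the GC correction the enzymes numbered 17 and 11, and EHMT2 was at 0.01. MAT2B did not pass with the block (0.27, adjusted p = 0.0748).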
